A study of Homo sapiens with 27 samples.

Results

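The vacuolar ATPase (V-ATPase) is the proton pump of lysosomes, and 10 genes of the pump were followed here through starvation, mTOR inhibition and loss of the transcription factors TFE3 and TFEB in a melanoma cell line. The genes were chosen by symbol from the deposited table of normalised expression, which holds 13523 genes, and all 10 were present. They are ATP6V0B, ATP6V0D1 and ATP6V0E1 of the membrane sector V0, ATP6V1A, ATP6V1B2, ATP6V1C1, ATP6V1D, ATP6V1E1 and ATP6V1H of the cytosolic sector V1, and the accessory protein gene ATP6AP1. RNA came from 501mel, an established human melanoma line with high levels of the pigment cell regulator MITF, a relative of TFE3 and TFEB. Polyadenylated RNA was read from its 3′ ends (QuantSeq Forward), so a transcript gives reads in proportion to its copies and not to its length, and values of different genes can be set side by side.

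By their labels the libraries form 9 groups of 3. WT cells, which carry no edit, were untreated, starved for 12 h in HBSS (a salt solution that lacks amino acids) or given 250 nM Torin1, an inhibitor of the catalytic site of mTOR, for 12 h. Each of TFE3 KO, TFEB KO and the double knockout of both genes (DKO) has a 12 h control and a 12 h culture with 250 nM Torin1, so the untreated WT cells carry no time in their label while the knockout controls do. The knockouts were made with Cas9 and the study's methods describe single clones, so clone and genotype cannot be told apart, and no source used here says that the libraries of a group came from separate cultures. The columns labelled WT HBSS replicate 3 and WT Torin1 replicate 1 held the same value in all 13523 genes and were left out, which leaves 25 libraries with n = 2 for WT HBSS and WT Torin1 and n = 3 for the other groups. The shared column held 12917 genes with a read, beside 12895 and 12901 in the other WT HBSS libraries and 13188 and 13181 in WT Torin1. It held ATP6V0B at 234, beside 223 and 232 in HBSS and 127 and 127 with Torin1. ATP6V1D was at 201, beside 180 and 183 in HBSS and 88.1 and 75.4 with Torin1. Of the genes followed, ATP6V1H alone, at 43.9, lay nearer to Torin1 (39.6 and 43.1) than to HBSS (49.0 and 48.6). Each of the other genes followed lay nearer to HBSS, among them ATP6V1B2 at 415, beside 400 and 417 in HBSS and 309 and 297 with Torin1. Which label is right was not tested.

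A value is a normalised read count, which scales libraries to a common depth, and the libraries held 4147050 to 6526392 reads in the table. The 10 genes were read 108 to 2375 times per library, so each was far above the limit of 3 reads that a count of 0 allows (a value of 0.460 to 0.711). All 7 melanocyte markers checked (MITF, PMEL, MLANA, TYR, DCT, TYRP1 and SOX10) were expressed in every library, and of 10 markers of fibroblasts, blood, endothelium and keratinocytes 8 were not among the table's genes, COL1A1 was at 0 to 5.06 and CD68, which encodes a lysosomal membrane protein, at 29.5 to 74.2. The summed melanocyte markers moved with treatment, from 6196 to 6392 in untreated WT to 14300 to 14453 in HBSS and 8031 to 8269 with Torin1, and their part in the results below was not tested. TFE3 reads were at 5.06 to 14.0 in the TFE3 KO and DKO libraries and at 16.5 to 31.4 in all others. TFEB reads were low throughout, at 0.611 to 3.45 in TFEB KO, 0.156 to 1.05 in DKO, 0.177 to 2.29 in TFE3 KO and 2.34 to 3.96 in untreated WT, and reached 28.0 to 30.4 in WT kept in HBSS. Reads at the 3′ end can lie outside an edited site, so these levels are a partial check of the labels.

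The V-ATPase is a rotary machine. V1 hydrolyses ATP in a ring of alternating A and B subunits, and the energy turns a central stalk that drives a ring of proteolipids in V0, which carries protons into the lumen. In lysosomes the acid activates hydrolases, and the pump also works with the Ragulator and Rag GTPases that bring the kinase complex mTORC1 to the lysosome when amino acids are present. In starved cells V1 and V0 can be assembled or kept apart to set the activity of the pump. Many lysosomal genes, V-ATPase genes among them, carry a CACGTG-containing element near their start that TFEB, TFE3 and MITF can bind. This is why these genes are read out when TFEB and TFE3 are released from mTORC1. In pigment cells V-ATPases also set the pH of melanosomes.

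RefSeq promoters (GRCh38.p14, 250 bases before to 50 bases after a start) were matched by symbol and used for 5 of the 10 genes. These genes were ATP6V0B, ATP6V0D1, ATP6V1D, ATP6V1E1 and ATP6AP1. Their promoters were searched for CACGTG, which reads the same on both strands. Promoters of ATP6V0E1, ATP6V1A, ATP6V1B2, ATP6V1C1 and ATP6V1H were not searched. Their absence here does not mean that RefSeq lists no promoter for them. ATP6V0B holds it at 2 places, beginning 57 and 39 bases before the start, and ATP6V0D1 holds it once, beginning 59 bases before the start and there within the longer TCACGTGA. The promoters of ATP6V1D, ATP6V1E1 and ATP6AP1 hold no CACGTG in this window. Of 11 other pump genes with a promoter searched, 2 hold it, ATP6V1G1 of V1 and ATP6V0E2 of V0. The other 9 do not, among them ATP6V0C of V0, so its presence does not follow the sector. Among all 35116 RefSeq promoters of this length, 7.26% hold CACGTG and 0.980% hold TCACGTGA. The 4 promoters printed are those of both matched V0 genes, of ATP6V1D, which moved with both treatments, and of ATP6AP1, which moved with HBSS, each 5′ to 3′ on the strand of its gene with CACGTG in capitals.
ATP6V0B, chr1:43974710-43975009, plus strand: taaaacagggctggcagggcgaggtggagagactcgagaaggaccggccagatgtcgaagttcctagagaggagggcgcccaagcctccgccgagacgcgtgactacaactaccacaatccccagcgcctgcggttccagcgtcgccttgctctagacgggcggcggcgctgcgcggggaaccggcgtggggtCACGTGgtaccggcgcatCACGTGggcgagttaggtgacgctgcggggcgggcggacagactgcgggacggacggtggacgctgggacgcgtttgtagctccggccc
ATP6V0D1, chr16:67481108-67481407, minus strand: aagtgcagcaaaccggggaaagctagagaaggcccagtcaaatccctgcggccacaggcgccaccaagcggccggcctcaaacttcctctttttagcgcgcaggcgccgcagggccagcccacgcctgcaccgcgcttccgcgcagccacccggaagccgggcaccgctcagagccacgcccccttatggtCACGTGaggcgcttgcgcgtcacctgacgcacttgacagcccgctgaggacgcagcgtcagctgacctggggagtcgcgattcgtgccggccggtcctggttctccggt
ATP6V1D, chr14:67359755-67360054, minus strand: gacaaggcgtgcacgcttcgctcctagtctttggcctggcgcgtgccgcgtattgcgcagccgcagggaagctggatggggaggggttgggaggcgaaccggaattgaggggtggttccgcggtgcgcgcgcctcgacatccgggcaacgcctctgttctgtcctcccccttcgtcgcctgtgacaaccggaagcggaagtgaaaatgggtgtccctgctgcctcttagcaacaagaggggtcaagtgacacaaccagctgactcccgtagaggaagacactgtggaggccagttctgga
ATP6AP1, chrX:154428427-154428726, plus strand: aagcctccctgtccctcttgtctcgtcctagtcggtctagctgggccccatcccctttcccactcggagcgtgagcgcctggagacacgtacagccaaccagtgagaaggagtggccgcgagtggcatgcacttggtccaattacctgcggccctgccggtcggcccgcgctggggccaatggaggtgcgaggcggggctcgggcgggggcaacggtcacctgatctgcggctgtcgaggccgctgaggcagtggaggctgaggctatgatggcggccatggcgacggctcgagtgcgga

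The genes lie on 8 chromosomes, with 3 of them far apart on chromosome 8. On hg38, GENCODE places ATP6V0B at chr1:43974487-43978295 (plus strand), ATP6V0D1 at chr16:67438014-67481181 (minus strand) and ATP6V0E1 at chr5:172983771-173035445 (plus strand). Of V1, ATP6V1A lies at chr3:113746770-113812056, ATP6V1B2 at chr8:20197381-20226819 and ATP6V1C1 at chr8:103021063-103073051 (all plus strand), and ATP6V1D at chr14:67294371-67360265, ATP6V1E1 at chr22:17592136-17628749 and ATP6V1H at chr8:53715543-53843558 (all minus strand). ATP6AP1 lies at chrX:154428633-154436516 (plus strand). GENCODE also lists 4 processed pseudogenes of ATP6V0E1 and 3 of ATP6V1E1, none of which is among the table's genes, and how the counting treated reads shared with such copies is not given in the sources used here.

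In untreated WT cells the levels of the 10 genes spanned about 1 order of magnitude. ATP6V1E1, a peripheral stalk subunit, had the highest level, 368 ± 19.1 (SD, n = 3), followed by the proteolipid gene ATP6V0B at 336 ± 10.9 and the nucleotide-binding subunit gene ATP6V1B2 at 277 ± 14.2. The membrane subunit gene ATP6V0E1 stood at 183 ± 29.9, with 1 library at 217 and the others at 162 and 169. ATP6V1A, the catalytic subunit gene, was at 129 ± 4.35 and ATP6V1D, the rotor subunit gene, at 129 ± 13.0, which do not differ beyond their spread, and ATP6AP1 followed at 115 ± 11.5. The lowest levels were those of ATP6V0D1, which links the rotor to the proteolipid ring, at 72.3 ± 0.904, of ATP6V1C1, the subunit that clamps the stalks, at 52.7 ± 1.87, and of ATP6V1H, which controls ATP hydrolysis by the free V1, at 43.6 ± 2.75.

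**Figure D1:**
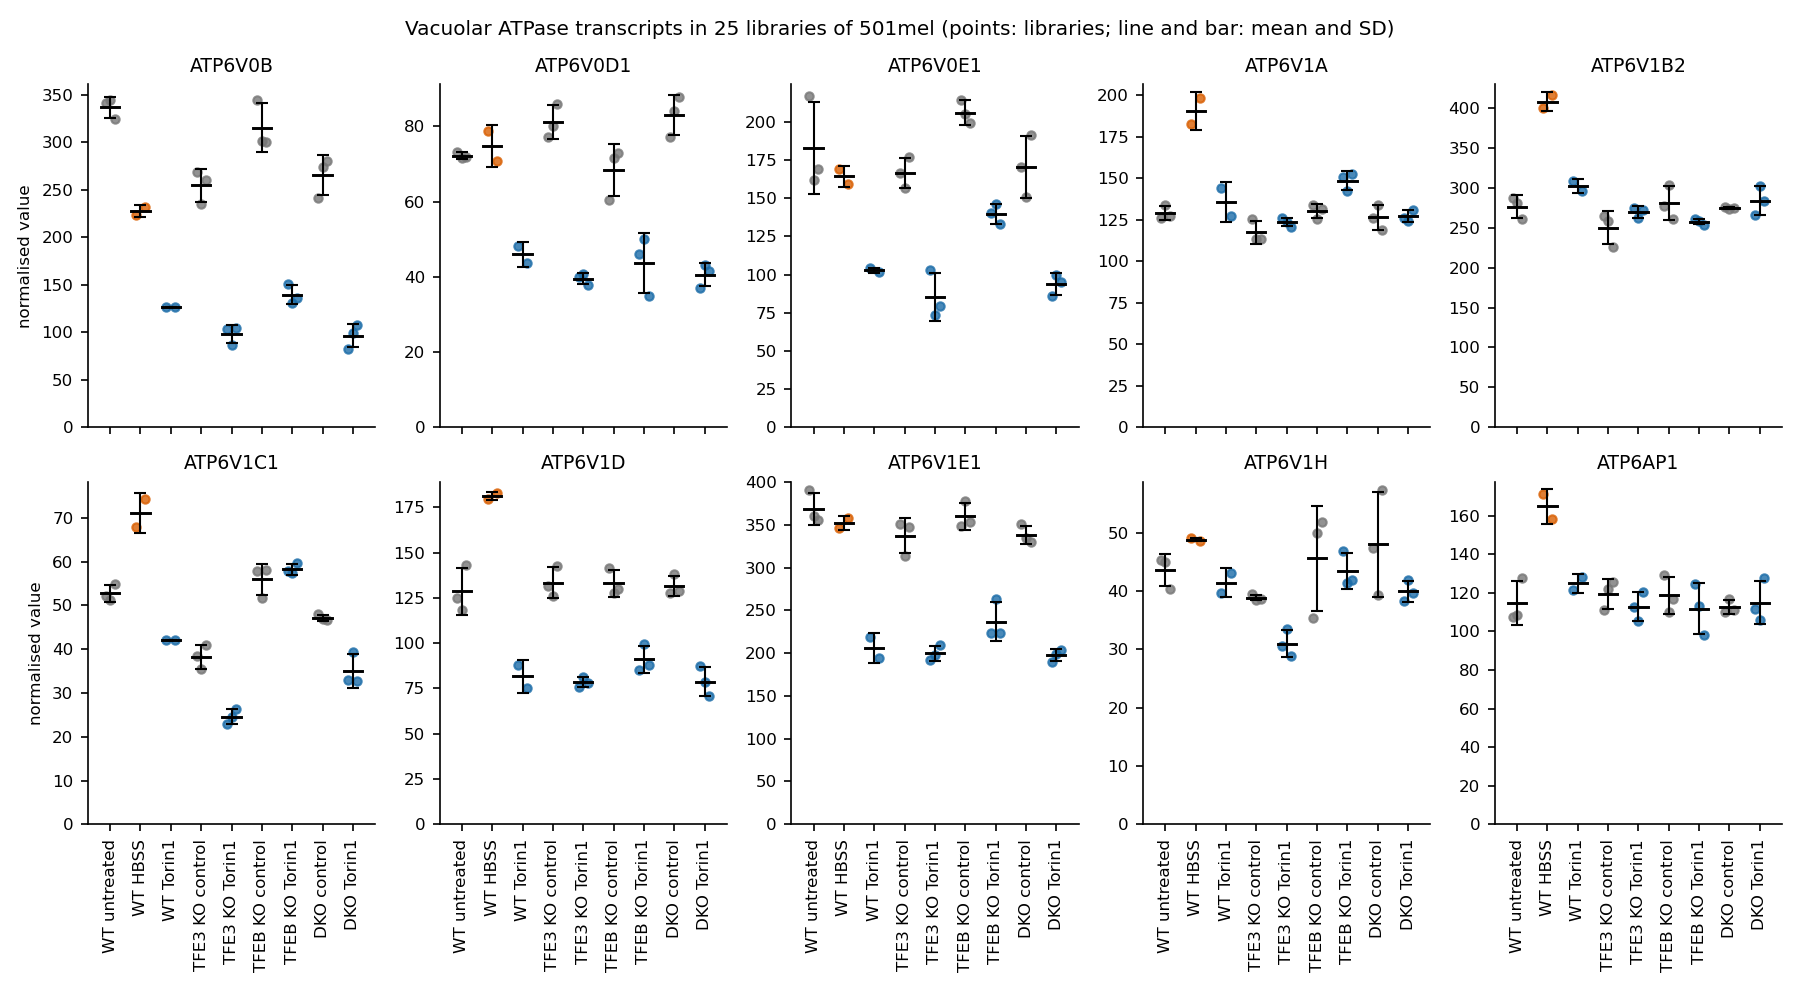
Normalised value (y axis, linear from 0) of the 10 V-ATPase genes in 9 groups (x axis), with 1 point per library and the group mean and SD as line and bar (n = 2 for WT HBSS and WT Torin1, n = 3 otherwise). HBSS raised ATP6V1A from a mean of 129 to 190, while Torin1 lowered ATP6V0B from 336 to 127 in WT, and the blue Torin1 points of ATP6V0B, ATP6V0D1, ATP6V0E1, ATP6V1D and ATP6V1E1 lie under the grey control points in each genotype.

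HBSS asks how the pump's transcripts respond when culture medium is replaced by a salt solution without amino acids. Growth medium of the study also held serum, and whether HBSS cultures kept serum is not given in the sources used here. Loss of amino acids and loss of serum therefore cannot be told apart. In WT cells 5 of the 10 genes rose, 1 fell and 4 were not called, and the 5 that rose were 4 genes of V1 and ATP6AP1, with none from V0. Of all 13052 genes tested with limma, 23.6% were higher and 24.7% lower at an adjusted p under 0.05, so a large share of all genes moved in each direction. Values are shares of a library, so fewer copies per cell and more copies of other transcripts cannot be told apart. The median log2 fold change of the 10 was 0.29, that of the 6 V1 genes 0.46 and that of the 3 V0 genes -0.14, beside -0.03 over all genes.

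The catalytic hexamer genes moved by nearly the same step. ATP6V1A was at 126, 134 and 127 in the untreated libraries and at 182 and 198 in HBSS. ATP6V1B2 was at 288, 282 and 261 untreated and at 400 and 417 in HBSS. For both genes every HBSS library was above every untreated one, with log2 fold changes of 0.56 ± 0.09 (SE, adjusted p = 5.49e-07) and 0.56 ± 0.08 (adjusted p = 7.10e-08). ATP6V1D, the rotor, went from 125, 118 and 143 to 180 and 183, a log2 fold change of 0.50 ± 0.10 (adjusted p = 4.80e-05). ATP6V1C1 went from 52.1, 51.3 and 54.8 to 67.9 and 74.3, a log2 fold change of 0.42 ± 0.12 (adjusted p = 0.00224). ATP6AP1, whose product is needed to assemble V0 in the endoplasmic reticulum, went from 107, 108 and 128 to 171 and 158, a log2 fold change of 0.52 ± 0.10 (adjusted p = 2.66e-05). None of these 3 overlapped its untreated libraries, which is a description only. ATP6V1H did not overlap either and was not called (limma's adjusted p = 0.348), and the share of all genes without overlap was not counted.

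The gene that fell in HBSS was ATP6V0B, from 341, 344 and 324 to 223 and 232. Its log2 fold change was -0.56 ± 0.10 (adjusted p = 3.40e-06), a fall of the same size as the rise of ATP6V1A and ATP6V1B2, and the libraries did not overlap. The other V0 genes, ATP6V0D1 (log2 fold change 0.05, 95% interval -0.20 to 0.29) and ATP6V0E1 (-0.14, -0.37 to 0.08), were not called, nor were ATP6V1E1 (-0.06, -0.23 to 0.10) and ATP6V1H (0.16, -0.12 to 0.44). Of these intervals, the upper end of ATP6V1H alone reached the size of the rise of ATP6V1C1. Leaving out 1 HBSS library, replicate 2, ended the call of ATP6V1C1 (adjusted p = 0.0508), and no other member's call in this comparison was lost when a library was left out. With the identical column kept as WT Torin1, ATP6V1D was not called here (adjusted p = 0.0815).

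Torin1 asks what mTOR inhibition does in medium that still holds amino acids. In WT cells 6 of the 10 genes fell, none rose and 4 were not called, where 23.4% of all genes tested were lower and 20.5% higher. All 3 V0 genes fell, as did ATP6V1C1, ATP6V1D and ATP6V1E1 of V1. The median log2 fold change was -0.81 for the V0 genes and -0.19 for the V1 genes, and -0.48 for all 10, beside 0.00125 over all genes.

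ATP6V0B, the proteolipid gene, showed the largest change of the 10. Its value went from 341, 344 and 324 untreated to 127 and 127 with Torin1, a log2 fold change of -1.40 ± 0.10 (adjusted p = 1.38e-16), or 0.379 times the untreated level. It was the single member that also passed a log2 fold change of -1 or less, a rule that 4.0% of all genes met. ATP6V0E1 went from 217, 162 and 169 to 104 and 101 (log2 fold change -0.81 ± 0.11, adjusted p = 9.66e-08), and ATP6V0D1 from 73.3, 71.7 and 71.8 to 48.3 and 43.6 (-0.64 ± 0.12, adjusted p = 1.98e-05). No Torin1 library of a V0 gene reached the lowest untreated one, but the share of all genes without overlap was not counted.

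Among the V1 genes followed, ATP6V1E1, ATP6V1D and ATP6V1C1 fell, and ATP6V1A, ATP6V1B2 and ATP6V1H were not called. ATP6V1E1 went from 390, 360 and 355 to 219 and 194 (log2 fold change -0.83 ± 0.08, adjusted p = 9.19e-12). ATP6V1D went from 125, 118 and 143 to 88.1 and 75.4 (-0.65 ± 0.10, adjusted p = 5.88e-07). ATP6V1C1 moved least of those called, from 52.1, 51.3 and 54.8 to 42.2 and 42.2 (-0.31 ± 0.12, adjusted p = 0.0251), and that call was lost with edgeR (adjusted p = 0.0679), with DESeq2 (0.0659) and after median-of-ratios rescaling (0.0549), and without untreated replicate 3 (0.0729) or Torin1 replicate 2 (0.0940) or 3 (0.0974). The genes not called were ATP6V1A (log2 fold change 0.07, 95% interval -0.11 to 0.24), ATP6V1B2 (0.13, -0.03 to 0.29), ATP6V1H (-0.07, -0.35 to 0.21) and ATP6AP1 (0.13, -0.08 to 0.33). Their intervals leave no room for a fall of the size seen in ATP6V1D or ATP6V1E1. The Torin1 libraries of ATP6V1B2, at 309 and 297, both lay above the untreated range of 261 to 288, but the difference did not pass the test (adjusted p = 0.184). With the identical column kept as WT Torin1, ATP6V1B2 was called higher (0.28, adjusted p = 0.0271), and the calls of ATP6V1C1 (-0.08, adjusted p = 0.705) and ATP6V1D (-0.22, 0.430) were lost.

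**Figure D2:**
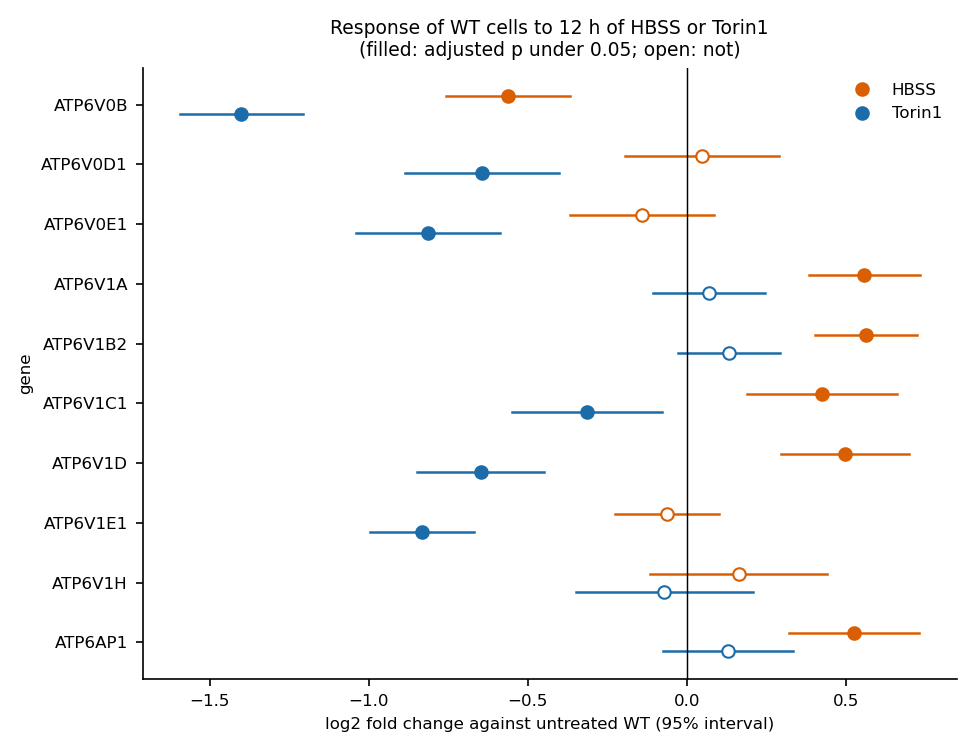
Log2 fold change against untreated WT (x axis) of the 10 genes (y axis) after HBSS (orange) and Torin1 (blue), with 95% intervals from limma, filled where the adjusted p was under 0.05. Both comparisons share the same 3 untreated libraries. ATP6V1A, ATP6V1B2 and ATP6AP1 rose with HBSS and lie near 0 with Torin1, ATP6V1D and ATP6V1C1 lie on opposite sides of 0, and ATP6V0B lies to the left of 0 with both.

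HBSS and Torin1 were also compared with each other, which needs no untreated library. Here 9 of the 10 genes were higher in HBSS, none was lower, and ATP6V1H (49.0 and 48.6 in HBSS, 39.6 and 43.1 with Torin1) was not called at a log2 difference of 0.23 (95% interval -0.07 to 0.54). Over all genes 26.1% were higher in HBSS and 23.1% were lower, and the median difference was -0.01 against 0.68 for the 10. The widest gap was that of ATP6V1D, at 180 and 183 in HBSS against 88.1 and 75.4 with Torin1, a log2 difference of 1.14 ± 0.11 (adjusted p = 3.67e-12), and the narrowest called was that of ATP6AP1, 0.40 ± 0.11 (adjusted p = 0.00278). ATP6V0B, lowered by both treatments, was still higher in HBSS (0.84 ± 0.11, adjusted p = 6.18e-09). Both HBSS libraries of ATP6V1H were above both Torin1 libraries, but with n = 2 in each group this alone was not taken as a difference (limma's adjusted p = 0.202). With the identical column kept as WT Torin1, 3 of the 9 calls were lost, those of ATP6V0E1 (0.40, adjusted p = 0.0990), ATP6V1B2 (0.28, 0.0672) and ATP6AP1 (0.23, 0.222).

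Because the V1 and V0 genes followed moved by different amounts, their summed transcripts were taken per library, as a description without a test. In untreated WT the 6 V1 genes summed to 1.63, 1.71 and 1.74 times the 3 V0 genes. The ratio was 2.60 and 2.77 in HBSS and 3.02 and 2.86 with Torin1, above every untreated library with both treatments. The sums behind it differed: in HBSS the V1 sum went up, from a mean of 999 ± 23.8 (SD) to 1252 ± 38.0, and the V0 sum down, from 592 ± 35.0 to 467 ± 6.01. With Torin1 both went down, V1 to 810 ± 44.8 and V0 to 276 ± 5.15. These sums cover only the genes followed, 6 of V1 and 3 of V0, so the ratio depends on which genes were chosen. ATP6V1F and ATP6V1G1 of V1 are not in them. Neither is ATP6V0C, the most abundant V0 transcript, which is described further on.

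**Figure D3:**
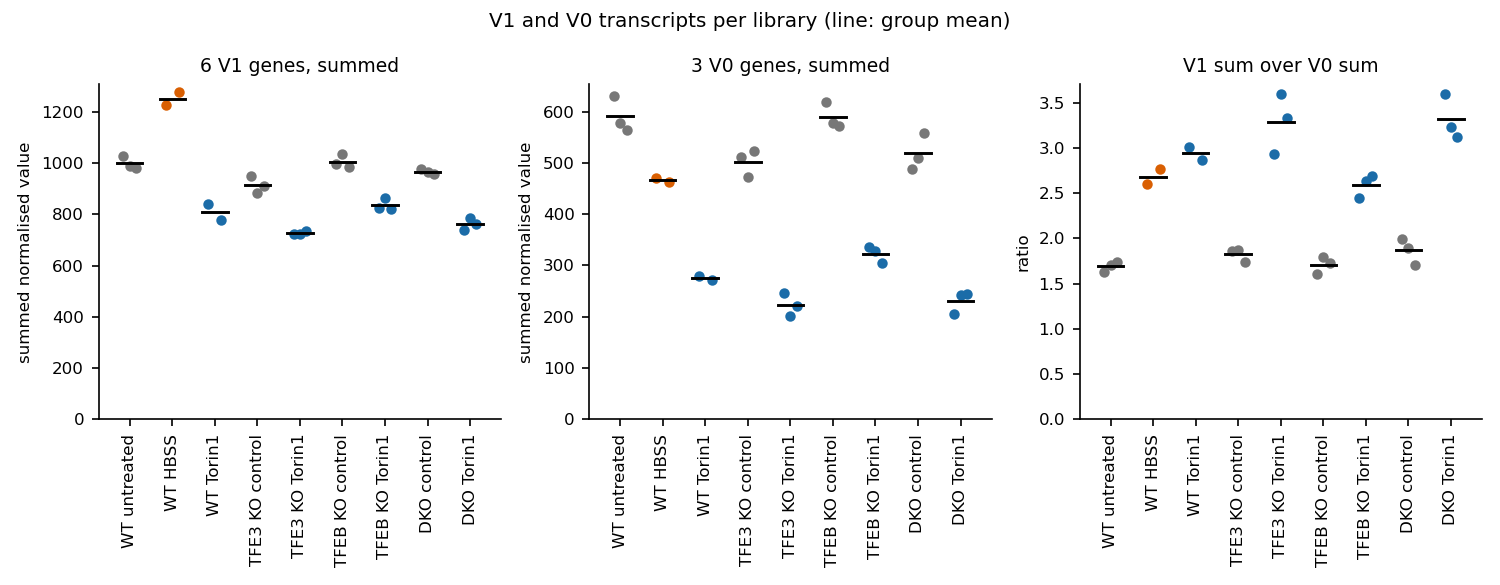
Summed normalised value of the 6 V1 genes, of the 3 V0 genes, and their ratio (y axes, linear from 0) in the 25 libraries by group (x axis), with 1 point per library and a line at the group mean. The ratio is 1.61 to 2.0 in libraries without treatment and 2.45 to 3.60 in those kept in HBSS or Torin1, in all genotypes.

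The knockouts show how these genes responded to Torin1 in clones without TFE3, TFEB or both. Falls were called in each, though not of the same genes throughout. Clone and genotype cannot be told apart, and whether the response needs either factor was not tested. Torin1 lowered 7 of the 10 genes in TFE3 KO, 5 in TFEB KO and 6 in DKO and raised none, where 26.0%, 21.0% and 26.2% of all genes were lower and 25.4%, 17.4% and 25.4% were higher. ATP6V0B, ATP6V0D1, ATP6V0E1, ATP6V1D and ATP6V1E1 fell in all 4 genotypes. In TFE3 KO, TFEB KO and DKO these calls held in all 35 alternatives, in which the scaling, the filter, the tool, the block or the libraries were changed.

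ATP6V0B in DKO was at 241, 274 and 280 in the controls and at 82.6, 99.4 and 107 with Torin1, a log2 fold change of -1.45 ± 0.09 (adjusted p = 3.45e-19). In TFE3 KO it went from 268, 235 and 260 to 104, 86.6 and 104 (-1.37 ± 0.09, adjusted p = 2.18e-18), and in TFEB KO from 345, 301 and 300 to 151, 131 and 136 (-1.17 ± 0.09, adjusted p = 1.42e-15). A log2 fold change of -1 or less was met by ATP6V0B in all 4 genotypes and by ATP6V0D1 in TFE3 KO and DKO (-1.02 ± 0.11 in both, adjusted p = 3.49e-11 and 4.01e-11), where 4.69% of all genes met it in TFE3 KO, 1.65% in TFEB KO and 4.29% in DKO. ATP6V0D1 stood at 77.1, 84.2 and 87.8 in DKO controls and at 37.1, 43.1 and 41.5 with Torin1, and in WT its Torin1 libraries, at 48.3 and 43.6, lay above all 3 of these.

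ATP6V1A, ATP6V1B2 and ATP6AP1 were called in none of the 4 genotypes. The largest of these differences, that of ATP6V1A in TFEB KO, from 134, 125 and 132 to 151, 142 and 153, had a log2 fold change of 0.19 ± 0.08 and an adjusted p of 0.0510, and it passed the threshold with edgeR (0.0108) and DESeq2 (0.00914). ATP6V1C1 fell in TFE3 KO (from 38.5, 35.4 and 40.9 to 22.9, 24.5 and 26.4, log2 fold change -0.62 ± 0.10, adjusted p = 2.41e-06) and in DKO (from 48.0, 46.9 and 46.6 to 32.9, 39.4 and 32.7, -0.42 ± 0.10, adjusted p = 0.000642). In TFEB KO it was not called, at 57.8, 51.7 and 58.2 without and 57.8, 57.3 and 59.7 with the drug (0.06, 95% interval -0.15 to 0.27). ATP6V1H was called in TFE3 KO alone, at -0.32 ± 0.12 (adjusted p = 0.0264), and that call was lost with edgeR (0.0562) and DESeq2 (0.0549), when any of 5 of its 6 libraries was left out, and with the identical column kept as WT Torin1 (0.0521).

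Whether a response differed from that of WT was tested directly, and none of the 10 genes passed in any knockout. With limma, 1 gene in TFE3 KO, 3 in TFEB KO and 1 in DKO had an unadjusted p under 0.05, and edgeR and DESeq2 also called none. Few genes passed at all in these tests, 1.06% in TFE3 KO, 1.16% in TFEB KO and 0.506% in DKO. The intervals show what this leaves room for. For ATP6V0B the response in DKO minus that in WT was -0.05 (95% interval -0.31 to 0.21) beside a response of -1.40 in WT, so a loss of most of the response lies outside the interval. For ATP6V1C1 in TFEB KO the difference was 0.37 (0.06 to 0.69, adjusted p = 0.256), and for ATP6V0D1 it was -0.38 in TFE3 KO (-0.70 to -0.05, adjusted p = 0.355) and -0.37 in DKO (-0.70 to -0.05, adjusted p = 0.394), towards a deeper fall. These differences rest on 2 WT Torin1 libraries and on clones.

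**Figure D4:**
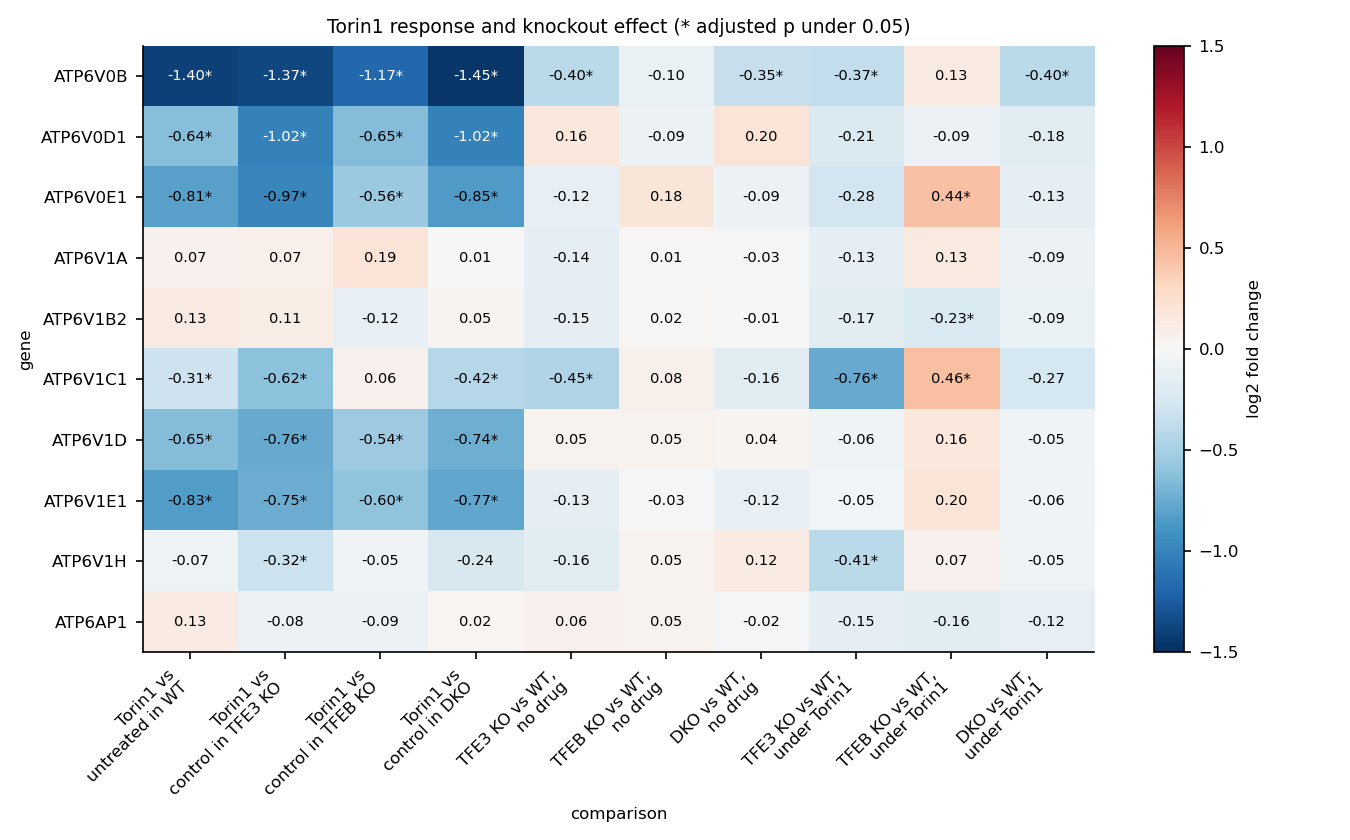
Log2 fold change (colour and number) of the 10 genes (rows) in 10 comparisons (columns): Torin1 against control in 4 genotypes, then each knockout against WT without and with the drug, with an asterisk where limma's adjusted p was under 0.05. The first 4 columns carry 24 called falls and no called rise, and ATP6V0B is negative in TFE3 KO and DKO against WT on both sides.

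Without drug, 2 of the 10 genes were lower in TFE3 KO than in WT (ATP6V0B and ATP6V1C1), none was called in TFEB KO and 1 was lower in DKO (ATP6V0B), where 9.41%, 14.6% and 13.1% of all genes were called in either direction, so counts this low in 10 genes do not set the members apart. No member of the TFEB KO comparison had an unadjusted p under 0.05 in limma, and none was called with edgeR or DESeq2, but 1 was called without untreated WT replicate 1 (ATP6V0E1, whose value in that library was the highest of its group, adjusted p = 0.0387).

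ATP6V0B was lower in both genotypes that lack TFE3. It was at 341, 344 and 324 in WT, at 268, 235 and 260 in TFE3 KO and at 241, 274 and 280 in DKO, so neither clone overlapped WT (log2 fold change -0.40 ± 0.09, adjusted p = 0.000867, and -0.35 ± 0.09, adjusted p = 0.00370). In TFEB KO, at 345, 301 and 300, it overlapped WT (-0.10, 95% interval -0.27 to 0.08). Under Torin1, TFE3 KO (104, 86.6 and 104) and DKO (82.6, 99.4 and 107) were below WT (127 and 127), at -0.37 ± 0.10 (adjusted p = 0.00766) and -0.40 ± 0.10 (adjusted p = 0.00341). TFEB KO, at 151, 131 and 136 under Torin1, was above both WT libraries, a difference that did not pass the test (0.13, 95% interval -0.06 to 0.33, adjusted p = 0.375). With the identical column kept as WT Torin1, the calls without drug were lost in TFE3 KO (adjusted p = 0.154) and DKO (0.201). Under Torin1, leaving out WT Torin1 replicate 2 or 3 or TFE3 KO Torin1 replicate 2 ended the call of TFE3 KO against WT (adjusted p = 0.0717 to 0.0796). Leaving out DKO Torin1 replicate 1 ended that of DKO against WT under Torin1 (0.0523).

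ATP6V1C1 was also lower in TFE3 KO than in WT, without drug (-0.45 ± 0.10, adjusted p = 0.00205) and under Torin1 (-0.76 ± 0.12, adjusted p = 5.86e-06), where its libraries at 22.9 to 26.4 lay under those of WT at 42.2. The call without drug was lost with the identical column kept as WT Torin1 (adjusted p = 0.0603). It was not called in DKO, at -0.16 (95% interval -0.37 to 0.05) without drug and -0.27 (-0.50 to -0.03, adjusted p = 0.132) under Torin1. Under Torin1, 3 of the 10 genes were called in TFE3 KO, 3 in TFEB KO and 1 in DKO against WT, where 9.64%, 18.0% and 12.1% of all genes were called. The third in TFE3 KO was ATP6V1H (-0.41 ± 0.14, adjusted p = 0.0498), a call that was lost in 26 of 35 alternatives, among them edgeR (0.0615), DESeq2 (0.0649), no filter (0.0517), the compared groups alone (0.0675) and leaving out any 1 of the 5 libraries compared (up to 0.280). In TFEB KO, ATP6V1C1 (0.46 ± 0.12, adjusted p = 0.00434) and ATP6V0E1 (0.44 ± 0.11, adjusted p = 0.00447) were higher than in WT and ATP6V1B2 was lower (-0.23 ± 0.08, adjusted p = 0.0369). Without WT Torin1 replicate 3 the count was 1, with ATP6V0E1 at an adjusted p of 0.0606, and the call of ATP6V1B2 was lost with edgeR (0.0644) and without any 1 of the 5 libraries compared. With the identical column kept as WT Torin1, neither ATP6V1C1 (0.22, adjusted p = 0.326) nor ATP6V0E1 (0.17, 0.541) was called.

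Between the single knockouts without drug, 29.9% of all genes were called in either direction. Of the members 3 were called, all lower in TFE3 KO, a count that does not set them apart. These were ATP6V1C1 (38.5, 35.4 and 40.9 in TFE3 KO against 57.8, 51.7 and 58.2 in TFEB KO, log2 fold change -0.54 ± 0.10, adjusted p = 7.59e-05), ATP6V0B (-0.31 ± 0.09, adjusted p = 0.00509) and ATP6V0E1 (-0.31 ± 0.10, adjusted p = 0.0174). Libraries of the clones did not overlap in any of the 3, nor in ATP6V0D1, which was not called (limma's adjusted p = 0.0746). The share of all genes without overlap was not counted. Without TFE3 KO control replicate 2 the count was 1, since ATP6V0B (adjusted p = 0.0515) and ATP6V0E1 (0.0853) were no longer called, and leaving out TFEB KO control replicate 1 ended the same calls (0.0552 and 0.0710), as did keeping the identical column as WT Torin1 (0.157 and 0.177).

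The rest of the pump was taken from a list of 16 other V-ATPase genes, of which 13 were in the table and tested. In HBSS 3 of these rose and 3 fell, and with Torin1 in WT 2 rose and 4 fell, with medians of 0.08 and -0.19. Over all genes tested 23.6% rose and 24.7% fell in HBSS, and 20.5% rose and 23.4% fell with Torin1. These counts therefore do not set the list apart. ATP6V0C, the gene of the main proteolipid and the most abundant transcript of the pump, was at 786 ± 54.1 (SD, n = 3) untreated, at 643 ± 23.4 (n = 2) in HBSS and at 454 ± 7.08 (n = 2) with Torin1. It thus moved as its partner ATP6V0B did, with log2 fold changes of -0.29 ± 0.09 (adjusted p = 0.00883) in HBSS and -0.79 ± 0.09 (adjusted p = 2.74e-09) with Torin1, and it fell with Torin1 in TFE3 KO (-0.96), TFEB KO (-0.87) and DKO (-0.96).

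Of the isoform genes, ATP6V0E2, the second gene of the e subunit, fell in HBSS (54.4 ± 9.57 to 29.2 ± 0.716, log2 fold change -0.86 ± 0.14, adjusted p = 6.31e-07), where ATP6V0E1 was not called, and fell with Torin1 (-1.01 ± 0.14, adjusted p = 2.97e-08), as ATP6V0E1 did. ATP6V0A4, which encodes an a subunit best known from kidney and inner ear, rose from 11.4 ± 0.815 to 35.2 ± 2.36 in HBSS (1.54 ± 0.23, adjusted p = 2.64e-07) and was not called with Torin1 (-0.49, adjusted p = 0.0794). ATP6V1E2, the second gene of the E subunit, rose with both (0.97 ± 0.24, adjusted p = 0.000639, and 0.72 ± 0.24, adjusted p = 0.0123) at a low level, 5.76 ± 1.26 untreated against 368 for ATP6V1E1. ATP6AP1L, which GENCODE annotates as a pseudogene, fell in HBSS and rose with Torin1 from a mean of 2.11. Among other isoform genes of the list, named here after their values were seen, ATP6V0A2 fell with Torin1 (-0.49 ± 0.19, adjusted p = 0.0338) and was not called in HBSS (-0.32, adjusted p = 0.167), and ATP6V0A1 (0.30 in HBSS, -0.19 with Torin1), TCIRG1 (-0.20 and -0.07) and ATP6V1B1 (0.30 and -0.31) were called with neither. ATP6V1C2, ATP6V1G3 and ATP6V0D2 were not among the table's genes.

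**Figure D5:**
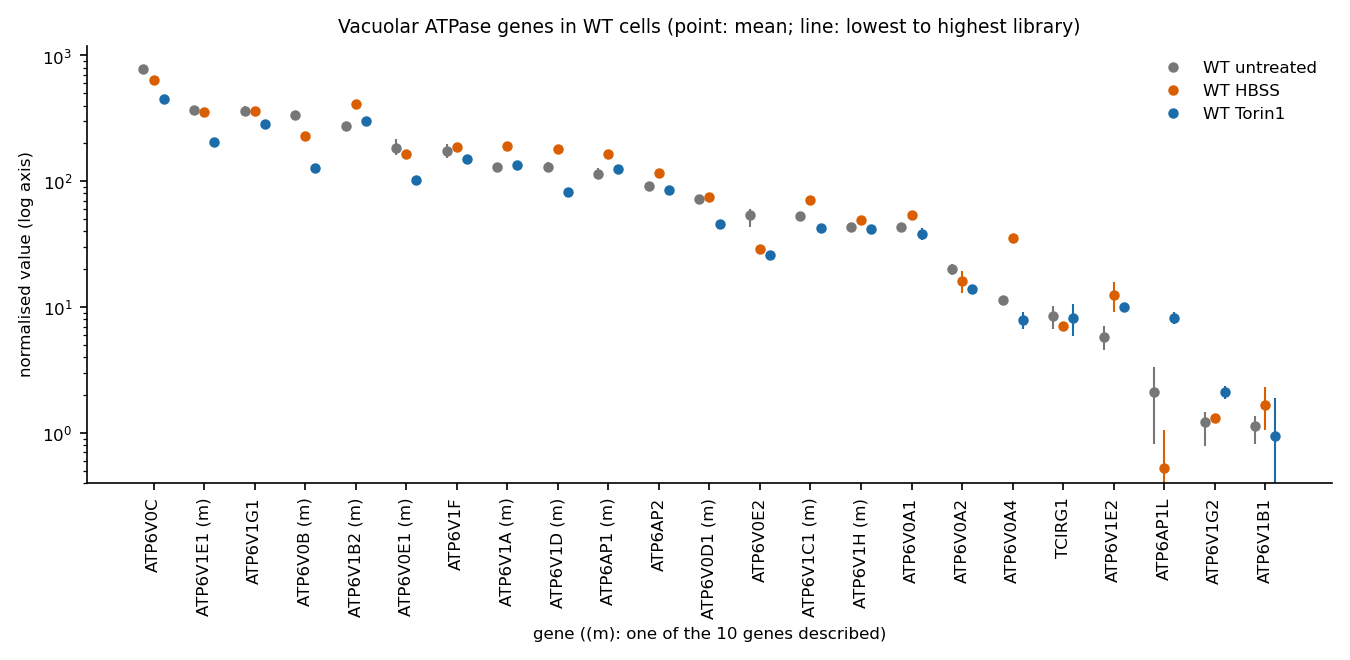
Normalised value (y axis, log scale) of the 23 V-ATPase genes of the table in WT cells, ordered by the untreated mean, with points for the mean and lines from the lowest to the highest library, which reach the lower edge where a library is at 0 (n = 3 untreated, n = 2 in HBSS and Torin1). ATP6V0C is highest at 786, the 10 genes described, marked (m), lie between 43.6 and 368 untreated, and ATP6V0A4 rises from 11.4 to 35.2 in HBSS.

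Factors that build or regulate the pump were counted from a list of 12, all tested. In HBSS 4 rose and 4 fell (median 0.02), where 23.6% of all genes tested rose and 24.7% fell. With Torin1 in WT 4 rose and 2 fell (median -0.03), where 20.5% of all genes rose and 23.4% fell. The list was not tested as a set. DMXL1 and DMXL2, subunits of the RAVE-like complex that joins V1 to V0, rose in HBSS (0.93 ± 0.19, adjusted p = 6.59e-05, and 0.93 ± 0.17, adjusted p = 9.87e-06) and with Torin1 (0.66 ± 0.19, adjusted p = 0.00429, and 0.64 ± 0.17, adjusted p = 0.00181). NCOA7 and OXR1, TLDc-domain proteins that bind V1, rose in HBSS (1.19 ± 0.12 and 0.73 ± 0.16), while MEAK7, of the same domain family and listed under its older symbol TLDC1, fell (-1.09 ± 0.21, adjusted p = 3.15e-05). The V0 assembly factors TMEM199 (-0.95 in HBSS, -0.36 with Torin1) and VMA21 (-0.55 with Torin1) fell, VMA21 not being called in HBSS (-0.11).

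Of 11 lysosomal ion transporters listed, 10 were tested. In HBSS 4 rose and none fell, and with Torin1 in WT 4 rose and 3 fell, with medians of 0.28 and 0.34. Over all genes tested 23.6% rose and 24.7% fell in HBSS, and 20.5% rose and 23.4% fell with Torin1. These shares stand beside each count of this paragraph, and none of its lists was tested as a set. CLCN7, the chloride-proton exchanger that works beside the pump in lysosomes, rose from 64.3 to 177 in HBSS (1.46 ± 0.12, adjusted p = 1.18e-14) and to 106 with Torin1 (0.72 ± 0.12, adjusted p = 2.15e-06), the opposite of ATP6V0B in the same libraries. Its partner OSTM1 rose in HBSS (0.30) and fell with Torin1 (-0.63), as ATP6V1D did. Of 17 genes of the mTORC1 scaffold at the lysosome, with which V1 makes contact, 6 rose and 4 fell in HBSS, led by FNIP2 (1.59 ± 0.11) and FNIP1 (1.52 ± 0.20), while with Torin1 2 rose and 3 fell. Among 53 lysosomal hydrolases and membrane proteins 24 rose and 4 fell in HBSS and 18 rose and 9 fell with Torin1 in WT, with medians of 0.32 and 0.05, where the 10 pump genes had 0.29 and -0.48.

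The pattern of the 10 genes over the 9 groups was summarised as their mean of centred log2 values, and 8431 other genes with a mean value of at least 10 were ranked by their Pearson correlation with it over the 9 group means, as a description. Of the members, ATP6V1D followed this mean most closely (r = 0.96) and ATP6V1B2 (0.42) and ATP6V1A (0.44) least. The 5 genes most like it were RBM18 (r = 0.996), ALKBH5 (0.995), IDH3A (0.992), TP53RK (0.991) and MFN2 (0.991). The points are 9 group means that share libraries and treatments, and with so many genes ranked high values of r are common.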

How the data were processed

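Total RNA of 501mel cells was made into QuantSeq Forward 3′ end libraries. Per the labels and the study's methods, reads were quality-checked (FastQC 0.11.9), trimmed (cutadapt 2.10), mapped to hg38 with STAR 2.7.8a and normalised with edgeR. The counter, annotation, scaling method and gene filter are not given in the sources used here. The deposited values are a normalised signal per gene, and 100% of them were whole multiples of 1 step per library within 0.01, so the authors' read counts were recovered for the count tools. Floors cover counting error only. A gene had to reach 1 in 3 libraries or more, which 471 genes did not.

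Values were taken as log2(value + 1), which understates changes of low genes, and limma 3.58.1 (eBayes with trend and robust, R 4.3.3) was run on the 25 libraries with a mean for each of the 9 groups. It gave 16 comparisons, with 2-sided p-values adjusted by Benjamini-Hochberg over 13052 genes, and a call is an adjusted p under 0.05. Overlap of libraries between groups is given as a description, and its share over all genes was not counted. The scripts were tested on simulated data. Alternatives were edgeR 4.0.16 (quasi-likelihood) and DESeq2 1.42.0 on recovered reads, median-of-ratios rescaling, no filter, a filter at 5, a pseudocount of 0.1, the compared groups alone, a replicate block, the identical column kept in either group, and leaving out each library. The members, gene lists and tests were chosen with earlier results of these data known. Genes of the other V-ATPase, assembly, ion transport and mTORC1 lists could be named if called in WT with HBSS or Torin1 with a log2 fold change of 0.5 or more in size, at most 10 per list. Older symbols were matched through RefSeq synonyms. p-values measure the spread between these libraries, which may be technical.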

Additional observations from a re-analysis of the deposited data

How the results depend on the processing

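No called member turned its direction under any alternative. The count of members called stayed within 1.5 times in all 16 comparisons under 9 of the 10 alternatives that change the scaling, filter, pseudocount, tool, groups, block or the place of the identical column. The exception was keeping that column as WT Torin1, which widens the spread of that group. The count then fell to 0 for TFE3 KO and for DKO against WT without drug, to 1 for TFE3 KO against TFEB KO and to 1 for TFEB KO against WT under Torin1, and it rose to 6 for TFE3 KO and to 2 for DKO against WT under Torin1. ATP6V1D with Torin1 in WT was then at -0.22 (adjusted p = 0.430) and in HBSS at 0.50 (adjusted p = 0.0815). Leaving out 1 library gave 0 to 1 calls for TFEB KO against WT without drug, 1 to 4 for TFE3 KO against TFEB KO, 1 to 3 for TFE3 KO and 1 to 3 for TFEB KO against WT under Torin1, and 0 to 1 for DKO against WT under Torin1.

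Replicate numbers are shared by the groups in the labels. Deviations of 92 pairs of libraries with the same number correlated at -0.19 to 0.16 (median 0.0067), 4 of them above 0.1, and 10 of 25 libraries correlated best with their own number, so the numbers were not taken as pairing. With the replicate block the counts were 6 for HBSS, 6 for Torin1 in WT, 7 in TFE3 KO, 5 in TFEB KO and 6 in DKO, and 2 in place of 3 for TFE3 KO against WT under Torin1, where ATP6V1H had an adjusted p of 0.0651. The block changed no other member's call. The 10 genes were read at least 108 times per library, and how far depth sets the spread of the least read, ATP6V1C1 and ATP6V1H, was not tested. With 2 libraries each, WT HBSS limits the precision of the responses to HBSS and WT Torin1 that of the differences between genotypes under Torin1.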

Other observations

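The other V-ATPase genes were also followed through the knockouts. With Torin1, 3 of the 13 tested rose and 4 fell in TFE3 KO, and 2 rose and 4 fell in each of TFEB KO and DKO. Over all genes 25.4% rose and 26.0% fell in TFE3 KO, 17.4% and 21.0% in TFEB KO and 25.4% and 26.2% in DKO. These counts therefore do not set the list apart. ATP6V0E2 fell in TFE3 KO (log2 fold change -1.07 ± 0.12, SE), TFEB KO (-0.77 ± 0.12) and DKO (-0.90 ± 0.12) as in WT, and ATP6AP1L, at a mean of 2.11 in untreated WT, rose in all 3 (1.46, 1.46 and 1.38). ATP6V1G2, a brain isoform of the G stalk subunit at a mean of 1.22 in untreated WT, rose with Torin1 in TFE3 KO (1.14 ± 0.30, adjusted p = 0.00123 with limma) and DKO (1.59 ± 0.30, adjusted p = 1.42e-05) and was not called in WT (0.51, adjusted p = 0.222) or TFEB KO (0.31, adjusted p = 0.436), and none of these genes passed the test of a Torin1 response that differs from that of WT. ATP6V1G2 was named here after its values were seen.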
